A study of Mus musculus with 34 samples.

Results

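Pancreatic polypeptide, peptide YY and neuropeptide Y, with 2 of the receptors they act on, were followed through bulk RNA-seq libraries of mouse pancreatic islets. The genes were found by name in the deposited count table: Ppy, Pyy and Npy encode the peptides, and Npy1r and Npy4r encode receptors. They are 5 of the 48709 genes listed. Ppy and Npy were chosen by their levels in islets sampled 5 and 30 days after ablation and in untreated islets, so for these genes the comparisons among those groups are a description and carry no test.

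The 3 peptides share a hairpin-like fold and an amidated carboxy terminus, and they act on a common set of receptors that couple to inhibitory G proteins. Pancreatic polypeptide comes from the PP cells of the islet and prefers the receptor encoded by Npy4r. Peptide YY is made by endocrine cells of the gut and by islet cells, and neuropeptide Y is a transmitter of sympathetic nerves that beta cells can also make, mainly early in life. The receptor encoded by Npy1r binds neuropeptide Y and peptide YY and is found on vessels, and on islet cells where it lowers cyclic AMP.

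Every mouse was of the genotype labelled RIP-DTR HTZ, where a receptor for diphtheria toxin (DT) is placed under the rat insulin promoter, so the untreated mice had the transgene too. The islets were followed after beta cells had been exposed to DT or to streptozotocin (STZ), a toxin that enters beta cells. Untreated islets whose labels name neither a time nor a diet (CTRL, n = 3) stood beside islets taken 5 days (DT 5 DPA, n = 4) and 30 days (DT 30 DPA, n = 4) after DT. At 10 weeks, on diets labelled SD and HFD, the untreated groups were CTRL SD with 3 libraries and CTRL HFD with 4. The groups given DT were DT SD with 4 and DT HFD with 3, and those given STZ at 75 mg/kg, STZ SD and STZ HFD, had 4 each. The sources used here do not give the age of the mice.

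The 33 libraries in these groups had total counts between 11083117 and 18918348. Islet hormone genes were abundant in all of them, with the summed level of 8 beta-cell markers between 29916 and 307926 CPM (counts divided by the TMM-scaled library size). Several libraries stood apart. In 8 libraries, 10 enterocyte markers summed to over 500 CPM: CTRL replicate 2, DT 5 DPA replicates 1, 2 and 4, DT 30 DPA replicate 2, STZ SD replicates 1 and 4, and DT HFD replicate 1. DT 30 DPA replicate 2 also held 10 sympathetic neuron markers at a sum of 3675 CPM, against 104 to 493 CPM in the other 32 libraries. In STZ HFD replicate 4 the 10 acinar markers summed to 635928 CPM.

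On GRCm38, Ppy spans chr11:102099930-102101319 and Pyy chr11:102106676-102107832, both on the minus strand and 5356 bases apart. Npy lies at chr6:49822710-49829507 on the plus strand, Npy1r at chr8:66697192-66706792 on the plus strand and Npy4r at chr14:34143992-34152489 on the minus strand. Each is a protein-coding gene, and no other annotated gene overlaps any of the 5. The 250 bases before the start site are shown for the 3 peptide genes because Ppy and Pyy, which are neighbours, moved together across libraries while Npy did not. They come from RefSeq on GRCm38.p6, 5′ to 3′ on the coding strand, with the letters TATAA in capitals. The windows are chr11:102101320-102101569 for Ppy, chr11:102107833-102108082 for Pyy and chr6:49822460-49822709 for Npy.
Ppy: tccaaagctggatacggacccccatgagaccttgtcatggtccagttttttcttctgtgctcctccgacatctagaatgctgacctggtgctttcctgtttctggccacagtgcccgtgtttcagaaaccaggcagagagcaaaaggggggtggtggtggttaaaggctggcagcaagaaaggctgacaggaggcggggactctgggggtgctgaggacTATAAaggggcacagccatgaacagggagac
Pyy: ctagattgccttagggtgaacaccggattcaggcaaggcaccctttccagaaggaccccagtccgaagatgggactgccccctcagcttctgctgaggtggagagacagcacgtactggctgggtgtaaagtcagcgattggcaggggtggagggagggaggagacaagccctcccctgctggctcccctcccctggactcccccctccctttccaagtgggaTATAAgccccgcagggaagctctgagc
Npy: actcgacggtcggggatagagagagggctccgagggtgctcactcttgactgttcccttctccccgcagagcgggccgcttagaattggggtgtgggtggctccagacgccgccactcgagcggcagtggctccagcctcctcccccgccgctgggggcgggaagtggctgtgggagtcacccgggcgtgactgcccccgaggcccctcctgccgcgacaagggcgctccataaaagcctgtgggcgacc
The letters TATAA stand on the coding strand 31 to 27 bases before the start of Ppy and 27 to 23 bases before that of Pyy. They are found in neither orientation in the window of Npy, where only the exact letters were sought and not near matches. Of 32851 promoter windows of the same length, 22.8% hold TATAA on either strand and 4.23% hold it on the coding strand within the last 40 bases. Of the other motifs sought, CANNTG (N, any base), held by 66.2% of those windows, stood once in that of Pyy and not in those of Ppy or Npy. TAAT and CGTCA stood in none of the 3. Aligned from their starts with no gaps, the Ppy and Pyy windows share 61 of 250 bases, the Ppy and Npy windows share 67, and the Pyy and Npy windows share 69. The match is one of letters and does not show a bound site.

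Per length, in the TPM values of the authors, Ppy was the most abundant member in most libraries and the receptors were the least. The median TPM over the 33 libraries was 7240.5 for Ppy, 2693 for Pyy, 62.1 for Npy, 1.99 for Npy1r and 0.043 for Npy4r. The TPM of Ppy ran from 25.6 to 22889, that of Pyy from 201 to 6263 and that of Npy from 18.9 to 2086. Ranges for the receptors were 0.51 to 5.58 for Npy1r and 0 to 1.64 for Npy4r. The lowest Ppy values thus lay below the median of Npy, while in DT HFD replicate 1 Ppy ranked 8 among all genes by counts.

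Ppy, the gene that marks PP cells, was abundant in every untreated and every STZ library and ranged 1392-fold among DT libraries. In 18 libraries without DT it stood between 671 and 8295 CPM. In the 15 libraries with DT it stood between 5.60 and 7798 CPM, with a median of 187. Of these 15 libraries, 9 lay below all 18 others, and 0.193% of the 17616 tested genes had 9 or more DT libraries below all others. The choice of the gene rested in part on these values, so nothing is read from that share. In bulk tissue, fewer cells of a type and less RNA per cell cannot be told apart.

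Among the earlier groups, CTRL replicates 1 to 3 held Ppy at 2956, 671 and 3824 CPM. DT 5 DPA replicates 1 to 4 held it at 1208, 13.3, 9.78 and 5.60 CPM, from 18411, 189, 124 and 94 counts. In DT 30 DPA the values were 1279, 3277, 3192 and 458 CPM. In 3 of 4 libraries at 5 days Ppy was thus far below every untreated library, and replicate 1 stood inside the untreated range. At 30 days 3 of 4 libraries were inside that range and replicate 4 was below it. The mean at 5 days was 309 ± 599 CPM (SD, n = 4) against 2484 ± 1629 (SD, n = 3) in CTRL, a fitted log2 fold change of -3.01, which was -8.02 without DT 5 DPA replicate 1. From 5 to 30 days the fitted log2 fold change was 2.73, and 7.74 without that library. With the libraries that held enterocyte RNA left out, which leaves 1 library at 5 days, these became -8.43 and 7.38.

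At 10 weeks the split among DT libraries was seen again on both diets. CTRL SD replicates 1 to 3 held Ppy at 3384, 2855 and 1890.4 CPM, and DT SD replicates 1 to 4 at 187, 29.5, 7798 and 170.0 CPM. On HFD, CTRL replicates 2 to 5 stood at 3877, 2045, 1401 and 2046 CPM, and DT replicates 1 to 3 at 4819, 116.7 and 12.5 CPM. On each diet 1 DT library was above every untreated library and the others were below every one, so the groups overlapped. The test across all genes found no difference in the mean. DT SD against CTRL SD gave a difference of -0.41 on the log2 scale (SE 1.57, adjusted p = 0.969 by edgeR) and DT HFD against CTRL HFD gave -0.51 (SE 1.60, adjusted p = 0.894). The interval of 2 SE on SD ran from -3.55 to 2.74, so a wide range of mean differences could not be told from none. Without the high library of each group, DT SD replicate 3 or DT HFD replicate 1, the values were -4.40 (adjusted p = 0.789) and -5.18 (adjusted p = 0.199). In these comparisons 0.0341% and 0.00568% of all tested genes were called.

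STZ libraries showed no such low values. STZ SD replicates 1 to 4 held Ppy at 1755, 7016, 8295 and 2189 CPM, and STZ HFD replicates 1 to 4 at 1916, 2234, 1690.1 and 2149 CPM. All 8 libraries were above the lowest untreated library of their diet except STZ SD replicate 1. The log2 fold change was 0.83 (SE 1.61, adjusted p = 0.971) for STZ SD against CTRL SD and -0.23 (SE 1.46, adjusted p = 0.981) for STZ HFD against CTRL HFD. STZ SD against DT SD gave 1.23 (SE 1.48, adjusted p = 0.691), all by edgeR. Of all tested genes, 0.00568%, 0.471% and 2.56% were called in these comparisons. By group median the order of Ppy was STZ SD, CTRL, CTRL SD, DT 30 DPA, CTRL HFD, STZ HFD, DT SD, DT HFD and DT 5 DPA. The ranges of neighbouring groups in that order overlapped in every case, since DT SD and DT HFD each held a high library.

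Pyy, the neighbouring peptide gene, followed Ppy over a narrower range. CTRL replicates 1 to 3 held it at 972, 286 and 1156 CPM, DT 5 DPA replicates 1 to 4 at 529, 127, 109 and 55.6 CPM, and DT 30 DPA replicates 1 to 4 at 580.3, 1543, 1250.4 and 253 CPM. The lowest values were in the same 3 libraries at 5 days as for Ppy. Over all groups 7 of 15 DT libraries lay below and 1 above all 18 others, where 1.06% of tested genes had 7 or more below. Against CTRL the log2 fold change of Pyy at 5 days was -1.97, which did not pass the test (SE 0.85, adjusted p = 0.195 by edgeR, where 5.39% of genes were called), and at 30 days it was 0.17 (SE 0.85, adjusted p = 0.921, 0.233% called).

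Pyy was higher at 30 days than at 5 days, by 2.14 on the log2 scale (SE 0.82, adjusted p = 0.0483 by edgeR). In that comparison 16.5% of all tested genes were called higher and 30.5% in either direction, and the values of Pyy overlapped between the groups. The call was close to the threshold: without DT 5 DPA replicate 2, 3 or 4 or DT 30 DPA replicate 1, 2 or 3 the adjusted p lay between 0.0544 and 0.130, and without the libraries holding enterocyte RNA it was 0.254.

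At 10 weeks CTRL SD replicates 1 to 3 held Pyy at 1738, 1379 and 1123 CPM and DT SD replicates 1 to 4 at 477, 264, 3001 and 334 CPM. On HFD, CTRL replicates 2 to 5 stood at 1668, 966, 449 and 1063 CPM and DT replicates 1 to 3 at 1664, 202 and 129 CPM. STZ SD replicates 1 to 4 held 890.4, 2408, 1889 and 1179 CPM and STZ HFD replicates 1 to 4 held 1182, 849, 698 and 649 CPM. DT SD replicate 3 and DT HFD replicate 1, the libraries high in Ppy, were the DT libraries high in Pyy. None of the comparisons at 10 weeks passed: the log2 fold change was -0.47 (SE 0.84, adjusted p = 0.919) for DT and 0.17 (SE 0.85, adjusted p = 0.989) for STZ on SD, and -0.64 (SE 0.86, adjusted p = 0.737) for DT and -0.30 (SE 0.79, adjusted p = 0.928) for STZ on HFD, all against the untreated islets of that diet by edgeR.

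**Figure D1:**
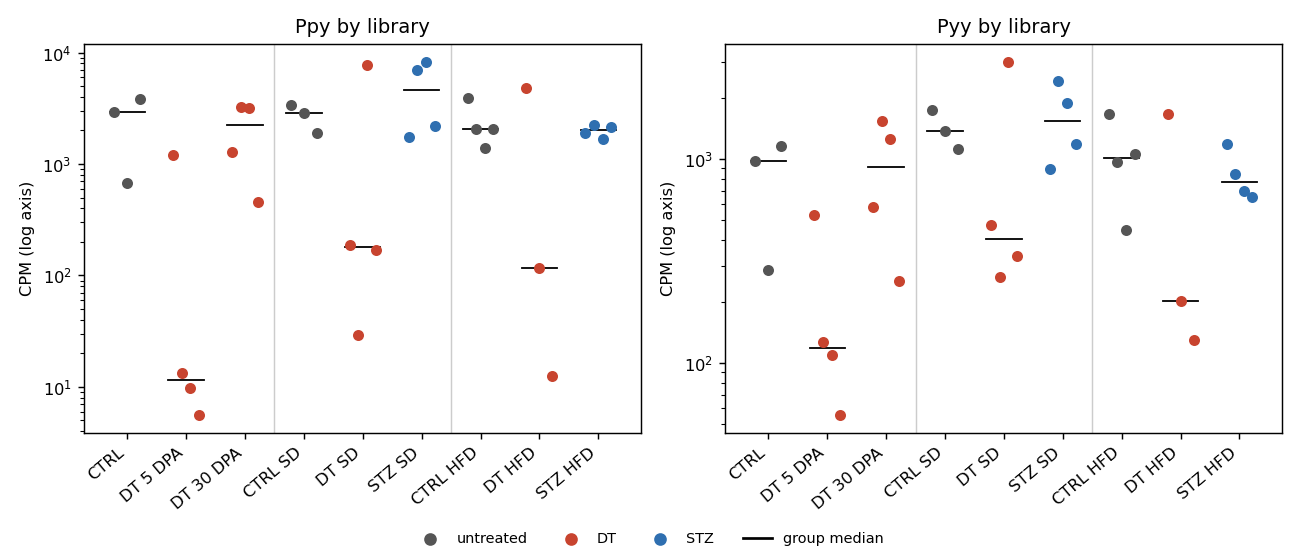
Ppy (left) and Pyy (right) in each of 33 libraries, as CPM on a log axis, by group; each point is a library and the line is the group median. In DT 5 DPA, DT SD and DT HFD a single library sits within or above the untreated values and the others lie below them, with Ppy as low as 5.60 CPM, while the STZ libraries lie between 1690.1 and 8295 CPM.

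The ratio of the 2 genes within a library does not depend on how libraries are scaled. For every 100 CPM of Pyy, the 18 libraries without DT held between 162 and 439 CPM of Ppy. In 8 of 15 DT libraries the ratio was between 8.99 and 57.7. These were the 3 low libraries at 5 days, DT SD replicates 1, 2 and 4, and DT HFD replicates 2 and 3, so Ppy was lower than Pyy in them and higher in all other libraries. DT 30 DPA replicate 4, which was low in both genes, kept a ratio of 181. The values of Ppy that had a part in its choice enter this ratio, so nothing is read from the count.

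The other hormone genes did not all move with Ppy. Sst, the somatostatin gene of delta cells, was below all 18 other libraries in 6 of 15 DT libraries, with 299 to 12109.8 CPM in DT libraries and 1649 to 8175 CPM in the rest. Of tested genes 1.06% had 7 or more DT libraries below all others, and the share with 6 or more was not computed. Gcg, the glucagon gene of alpha cells, was below all others in 0 of 15 DT libraries, a count that rests on CTRL replicate 2 with 7351 CPM of Gcg. The next lowest library without DT held 13690 CPM, and DT 5 DPA replicates 1, 2 and 4 held 12407, 12937 and 9352 CPM. Relative to 100 CPM of Sst, Ppy stood at 33.6 to 166 without DT and was below that range in 9 DT libraries. Relative to 100 CPM of Gcg it stood at 4.79 to 20.1 without DT and was below in 10. Of the summed CPM of Ins1, Ins2, Gcg, Sst and Ppy, Ppy took 0.841% to 4.28% without DT and less than that in 10 DT libraries. The choice of Ppy rested in part on values that enter these ratios. No share over other genes was computed for them, so nothing is read from the counts. The 6 delta-cell markers summed to 395 to 2233 CPM at 5 days, 854 to 12468 CPM in DT SD and 1007 to 8040.4 CPM in DT HFD. Untreated libraries stood between 1761 and 8438.5 CPM. Sst made up most of this sum, with 299 of 395 CPM in DT 5 DPA replicate 4 and 12109.8 of 12468 CPM in DT SD replicate 3. Hhex, another of the 6, stood at 26.9 to 35.3 CPM at 5 days against 43.4 to 58.4 CPM in CTRL. In DT SD it overlapped with CTRL SD. In DT HFD it stood at 48.3 to 55.2 CPM, inside the 43.6 to 57.2 CPM of CTRL HFD. Whether the makeup of the sampled islets had a part in these values was not tested.

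**Figure D2:**
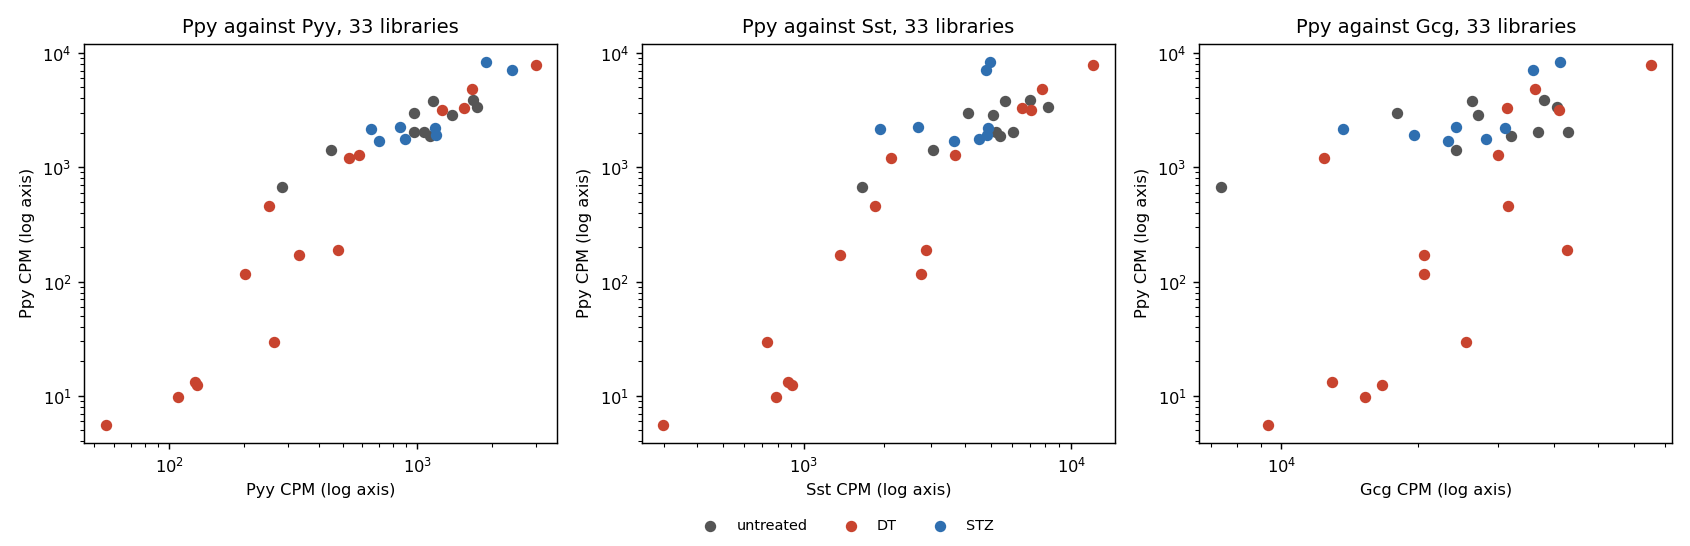
Ppy against Pyy (left), Sst (middle) and Gcg (right) in 33 libraries, all as CPM on log axes, with a point per library coloured by treatment. Below every library without DT lie 9 DT libraries in Ppy, 7 in Pyy, 6 in Sst and 0 in Gcg. Of 15 DT libraries, 8, 9 and 10 hold less Ppy per Pyy, Sst and Gcg than any library without DT. Ppy was chosen in part by these values, so nothing is read from the counts.

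Over 33 libraries Ppy ranked with Pyy more closely than with any other of 13208 genes compared (Spearman rho 0.95, and 0.79 in the 18 libraries without DT). The next genes for Ppy were Efnb3 (0.91), Calb1 (0.87), Scn3b (0.86) and Fam159b (0.86), with Sst at 0.85 and Gcg at 0.62. For Pyy they were Calb1 (0.92), Sst (0.90), Efnb3 (0.90) and Fam159b (0.89). Efnb3 encodes an ephrin ligand, Calb1 a calcium-binding protein and Scn3b a sodium channel subunit. Mpp2, the annotated coding gene next to Ppy on the side away from Pyy, stayed between 5.63 and 29.5 CPM. These are descriptions over libraries that share groups and differ in islet makeup.

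Npy showed the opposite arrangement. In the 18 libraries without DT, Npy was low, between 6.41 and 25.5 CPM. In the 15 DT libraries it stood between 10.4 and 494 CPM with a median of 34.0, and 13 of them lay above all 18 others. Of the 17616 tested genes 0.0114% had 13 or more DT libraries above all others. The values at 5 and 30 days had a part in the choice of the gene, so nothing is read from that share. On the authors' TPM scale 11 of 15 DT libraries lay above.

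CTRL replicates 1 to 3 held Npy at 15.6, 6.41 and 13.9 CPM. At 5 days after DT, replicates 1 to 4 held 15.8, 34.0, 93.0 and 27.5 CPM, and at 30 days 34.5, 494, 27.1 and 114 CPM. Every DT library was above every untreated one in both comparisons, as was so for 9.64% of genes at 5 days and 7.5% at 30 days, from which nothing is read here. The mean was 12.0 ± 4.90 CPM (SD, n = 3) in CTRL, 42.6 ± 34.4 (SD, n = 4) at 5 days and 167 ± 221 (SD, n = 4) at 30 days, with fitted log2 fold changes of 1.83 and 3.80 against CTRL.

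The highest value, 494 CPM, was in DT 30 DPA replicate 2, the library with the sympathetic neuron markers. There Dbh, the enzyme that makes noradrenaline, stood at 858 CPM and Slc6a2, the noradrenaline transporter, at 689 CPM, against at most 11.0 and 9.31 CPM elsewhere. Without that library the log2 fold change at 30 days against CTRL was 2.29, and without the libraries holding enterocyte RNA it was 1.99. Between 30 and 5 days it was 1.98 with all libraries and -0.67 without those holding enterocyte RNA. In DT 30 DPA replicate 4, with Npy at 114 CPM, the sympathetic markers summed to 493 CPM, and Th, the enzyme that starts the synthesis of catecholamines, stood at 51.1 CPM against at most 23.4 CPM without DT. In DT 5 DPA replicate 3, with Npy at 93.0 CPM, the sum was 281 CPM, of which Ddc, an enzyme also made in islets, gave 119 CPM. Dbh was at 11.0 CPM there and at most 10.0 CPM in the libraries without DT. The part of nerve RNA in the level of Npy was not tested.

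At 10 weeks on SD the Npy values did not overlap between DT and untreated islets. CTRL SD replicates 1 to 3 held 19.8, 11.8 and 12.6 CPM and DT SD replicates 1 to 4 held 55.3, 59.4, 29.1 and 60.2 CPM. All 4 DT libraries were above all 3 untreated ones, with a log2 fold change of 1.79 (SE 0.73), but the difference did not pass the test over all genes (adjusted p = 0.550 by edgeR), and 8.39% of genes were likewise higher without overlap. In DT SD the sympathetic markers summed to 323 to 350 CPM and the enterocyte markers to 64.8 to 71.0 CPM, both overlapping with CTRL SD. Other lists did not overlap between these groups. The beta-cell markers summed to 232001 to 254092 CPM in DT SD and 162836 to 185018 CPM in CTRL SD, the duct markers to 278 to 474 and 181 to 239 CPM, and the lymphocyte markers to 59.5 to 552 and 556 to 635 CPM. Their part in the difference was not tested. On HFD, CTRL replicates 2 to 5 held 13.1, 11.4, 7.15 and 11.8 CPM and DT replicates 1 to 3 held 26.6, 10.4 and 26.9 CPM. There 2 of 3 DT libraries were above all untreated ones and replicate 2 was among them, with a difference of 0.97 on the log2 scale (SE 0.69, adjusted p = 0.522).

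DT SD was also the highest of the groups at 10 weeks. STZ SD replicates 1 to 4 held Npy at 8.38, 10.6, 13.4 and 25.5 CPM and STZ HFD replicates 1 to 4 at 15.4, 7.15, 20.5 and 15.0 CPM. STZ islets overlapped with untreated ones on both diets, with log2 fold changes of -0.03 (SE 0.70, adjusted p = 0.998) on SD and 0.42 (SE 0.65, adjusted p = 0.853) on HFD. STZ SD lay below DT SD without overlap, as 4.29% of genes did, by -1.82 on the log2 scale (SE 0.66), which did not pass with edgeR (adjusted p = 0.117) and passed with DESeq2 (adjusted p = 0.0371). DT HFD lay below DT SD without overlap, as 18.4% of genes did, by -1.26 (SE 0.71, adjusted p = 0.189 by edgeR). With all 8 libraries holding enterocyte RNA left out of the fit, most of them in other groups, it was -1.46 (adjusted p = 0.0434 by edgeR). With any 1 library of the compared groups left out it did not pass (adjusted p between 0.182 and 0.511 by edgeR). Several marker lists did not overlap between DT HFD and DT SD either. The sympathetic markers summed to 109 to 200 against 323 to 350 CPM and the beta-cell markers to 29916 to 110995 against 232001 to 254092 CPM. The lymphocyte markers were higher, at 903 to 1633 against 59.5 to 552 CPM. Their part in the difference of Npy was not tested. By group median the order of Npy was DT 30 DPA, DT SD, DT 5 DPA, DT HFD, STZ HFD, CTRL, CTRL SD, STZ SD and CTRL HFD. Each neighbouring pair in that order overlapped.

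Npy was not closely related to Ppy or Pyy in rank over the 33 libraries (rho -0.28 and -0.22). Within the 18 libraries without DT the values were 0.29 and 0.34, and within the 15 DT libraries -0.04 and -0.05. The genes most like Npy were Ergic1 (rho 0.83), Tmem179, Atp6v0d1 and Atp6v0c (each 0.82) and Tubb3 (0.81). In that order the values were 0.59, 0.49, 0.72, 0.60 and 0.49 within the 18 libraries without DT. Within the 15 DT libraries they were 0.64, 0.76, 0.71, 0.54 and 0.79. Atp6v0d1 and Atp6v0c encode subunits of the proton pump of vesicles, and Tubb3 a tubulin of neurons. Over all libraries Dbh had a rho of 0.52 with Npy, Ins2, the main insulin gene of the mouse, 0.55, and Th 0.11. Within the 15 DT libraries these were 0.52, 0.67 and 0.73, and within the 18 others -0.13, 0.63 and 0.34.

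**Figure D3:**
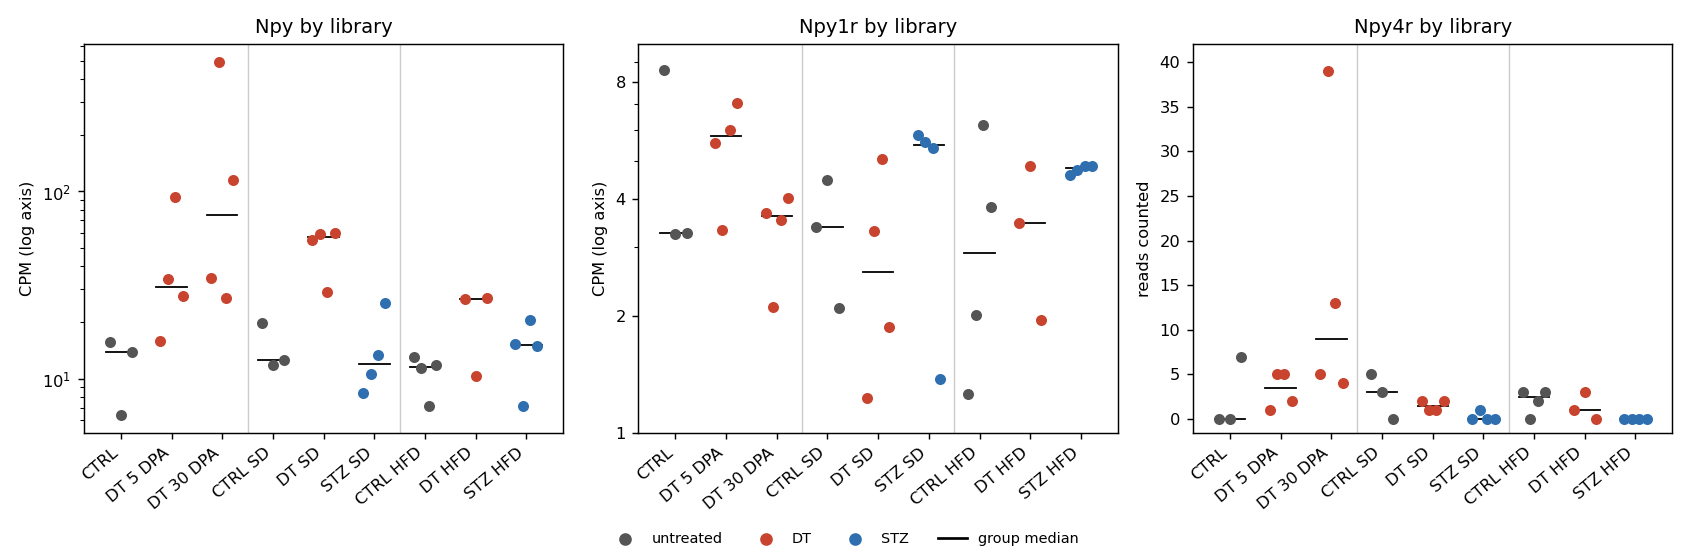
Npy (left) and Npy1r (middle) as CPM on log axes and Npy4r (right) as reads counted, in each of 33 libraries by group; each point is a library and the line is the group median. Npy is above 25.5 CPM in 13 of 15 DT libraries, Npy1r overlaps between all groups compared, and Npy4r reaches 39 and 13 counts in 2 libraries of DT 30 DPA and 0 to 7 in the rest.

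The receptor transcripts were scarce. Npy1r stood between 1.23 and 8.57 CPM over the 33 libraries, from 15 to 148 counts each. Its values overlapped between the groups in all 12 comparisons of groups, and none of its tests passed. At 5 days after DT replicates 1 to 4 held 5.58, 3.32, 5.99 and 7.03 CPM and at 30 days 3.68, 2.11, 3.52 and 4.01 CPM, a difference of -0.72 on the log2 scale (SE 0.48, adjusted p = 0.260 by edgeR). In STZ HFD the 4 libraries were close together, between 4.59 and 4.86 CPM, and in STZ SD 3 libraries were between 5.40 and 5.82 and replicate 4 at 1.38 CPM. By group median, DT 5 DPA at 5.79 CPM was the highest and DT SD at 2.59 CPM the lowest, and both groups overlapped.

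The genes whose ranks were closest to those of Npy1r were Tusc5 (rho 0.72), Tagln (0.70), Cyp1b1 (0.68), Selp (0.66) and Notch3 (0.65). Tagln and Notch3 are genes of smooth muscle and pericytes, and Selp encodes the P-selectin of endothelium and platelets. Acta2, smooth muscle actin, had a rho of 0.59. Npy5r, which lies 9063 bases from Npy1r on the opposite strand, had 0 to 2 counts.

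Npy4r, the receptor for pancreatic polypeptide, was at the limit of detection and too low to be tested. It had 0 to 7 counts in 31 libraries, 39 counts in DT 30 DPA replicate 2 and 13 in DT 30 DPA replicate 3. It was at 0 in all 4 STZ HFD libraries and in 3 of 4 STZ SD libraries, where 3 counts, the limit that a count of 0 allows, correspond to 0.166 to 0.484 CPM. In untreated islets it was at 0 in 4 of 10 libraries and at most 0.430 CPM in the rest. The 39 counts (2.49 CPM) fell in the library with sympathetic neuron and enterocyte markers, and the 13 counts (0.880 CPM) in a library with neither above the level of the others. The remaining receptor genes of the family, Npy2r, Npy5r and Npy6r, had at most 4 counts in any library, and no receptor but Npy1r passed the filter on low counts.

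In all, the 4 members that could be tested gave 44 tests in the 11 comparisons at 10 weeks, and 0 passed with edgeR. At an unadjusted p below 0.05 there were 2, both for Npy, and DESeq2 called 1. Of all tested genes 0.136% were called in STZ HFD against STZ SD, 0.341% in STZ HFD against DT HFD and 0% in CTRL HFD against CTRL SD. The difference between the DT effects on the 2 diets and that between the STZ effects are among these tests, and 0% of all genes were called in either.

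The lists of genes around the family were described by the same fit. The processing list holds 10 genes whose products cut, amidate or degrade peptides, or assist or inhibit the enzymes that cut them. From 5 to 30 days after DT, 6 of its 10 genes rose and 2 fell, beside 16.5% of all genes called higher and 13.9% lower, with a median log2 fold change of 1.13 against 0.02 over all genes. The alpha-cell markers summed to 9886 to 15915 CPM at 5 days and to 31119 to 42970 CPM at 30 days, and the beta-cell markers to 32535 to 122418 and 126623 to 307926 CPM. Their part in the changes of these lists was not tested. Scg5, the chaperone of prohormone convertase 2, rose by 1.42 (SE 0.32, adjusted p = 0.00213), from a mean of 183 to 489.7 CPM. Pcsk2, that convertase itself, rose by 1.39 (SE 0.32, adjusted p = 0.00265), and Pcsk1n, an inhibitor of prohormone convertase 1, by 1.37 (SE 0.33, adjusted p = 0.00363), all by edgeR. The 2 that fell were Fap, by 1.06 on the log2 scale, and Prep, by 0.56 on the log2 scale, both peptidases. Fap did not pass without any 1 of 6 of the 8 libraries compared, nor Prep without any 1 of 7, with adjusted p-values up to 0.151 and 0.126.

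Of 18 genes of inhibitory G protein signalling, which acts below the receptors, 7 rose and 1 fell between these times, with a median of 0.80. Gnaz (1.44, SE 0.28, adjusted p = 0.000478) and Gnao1 (1.53, SE 0.32, adjusted p = 0.00122) encode alpha subunits of inhibitory G proteins, and Rgs4 (1.87, SE 0.43, adjusted p = 0.0023) encodes a protein that shuts such signals off. In DT 30 DPA replicate 2 the level of Rgs4 was 231 CPM, where the other 3 libraries at 30 days held 45.7 to 51.1 CPM, and without that replicate its log2 fold change was 0.90 (adjusted p = 0.0400). Of 15 transcription factors of non-beta endocrine cells 12 rose, with a median of 1.31 over the list. Isl1 (1.55, SE 0.34, adjusted p = 0.00161), Pax6 (1.47, SE 0.32, adjusted p = 0.00169) and Rfx6 (1.36, SE 0.34, adjusted p = 0.00399) are regulators shared by islet endocrine cells.

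Of 9 genes reported in PP cells 2 rose and 1 fell, with a median of 0.64. Meis2 (1.11, SE 0.28, adjusted p = 0.00432) and Etv1 (1.28, SE 0.40, adjusted p = 0.0183) are transcription factors that stand in the endocrine list too, and Id2, an inhibitor of helix-loop-helix factors, fell by 1.20 on the log2 scale (SE 0.21, adjusted p = 0.000212). Etv1 did not pass without DT 5 DPA replicate 1 or 4 or DT 30 DPA replicate 2 (adjusted p between 0.0506 and 0.0602). Id2 was at 67.4 to 92.9 CPM at 5 days and at 28.4 to 39.0 CPM at 30 days. Over the 4 lists 25 of 50 genes were called higher and 5 lower in this comparison, beside 16.5% and 13.9% of all genes. The 5 macrophage markers summed to 4127 to 6224 CPM at 5 days and to 376 to 834 CPM at 30 days, and their part in these changes was not tested. Without the libraries holding enterocyte RNA, which leaves 1 library at 5 days, 3 of 50 were called, beside 4.93% of all genes, and 36 of 50 had a log2 fold change above 0.

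**Figure D4:**
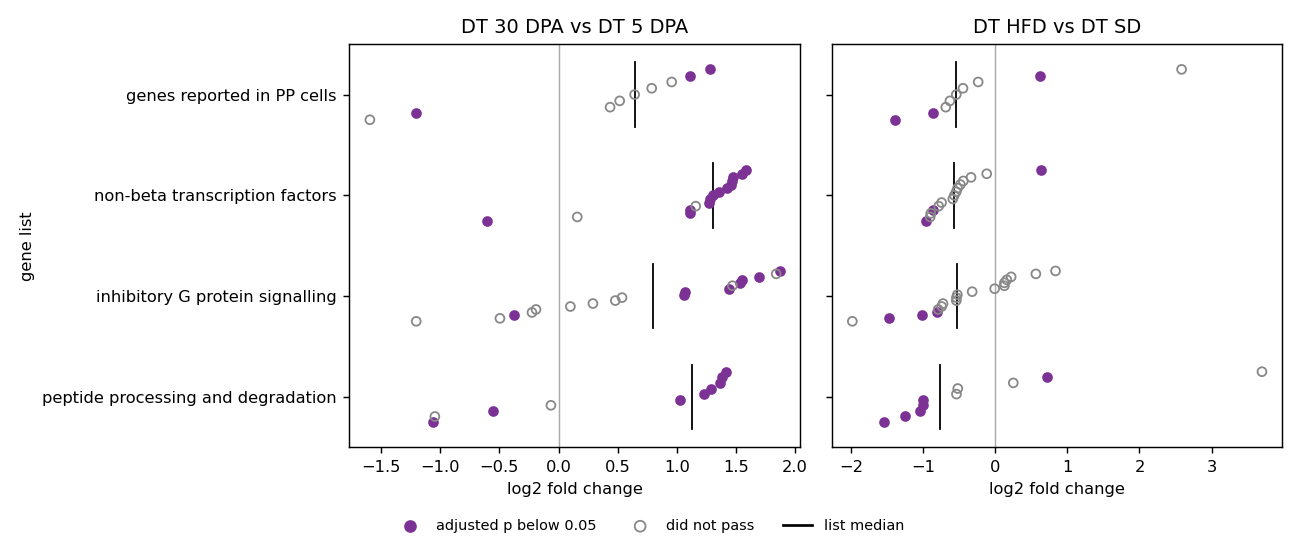
Log2 fold changes of the genes of 4 lists, for DT 30 DPA against DT 5 DPA (left) and DT HFD against DT SD (right); filled points passed the test at an adjusted p below 0.05 and the line is the list median. At 30 days 25 list genes rose and 5 fell, and on HFD 3 were higher and 11 lower than on SD.

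Among the other comparisons the lists had most calls in DT HFD against DT SD, with 14 called genes of 50, 3 higher and 11 lower, beside 15% and 8.46% of all genes and 23.5% in either direction. The genes below were picked after their values were seen. Pcsk1, prohormone convertase 1, fell by 1.55 on the log2 scale (adjusted p = 0.0114 by edgeR), at 302 to 429 CPM in DT SD and 55.1 to 162 CPM in DT HFD. Cpe, a carboxypeptidase that trims peptide ends, fell by 1.25 (adjusted p = 0.0165), and the log2 fold change of Slitrk6, of the PP-cell list, was -1.39 (adjusted p = 0.0243). Without DT HFD replicate 2, edgeR called 0 of 50 and 0% of all genes, with 8 of 50 at an unadjusted p below 0.05. The count was 3 without DT HFD replicate 3, 6 without DT SD replicate 1 and 2 without DT SD replicate 3. Without DT HFD replicate 1, which held enterocyte RNA, 2 were called higher and 19 lower, beside 27.7% of all genes. With all 8 libraries holding enterocyte RNA left out of the fit, most of them in other groups, the count was 30, beside 35% of all genes. Pcsk1, Cpe and Slitrk6 had adjusted p-values of 0.126, 0.156 and 0.188 without DT HFD replicate 2. Several marker lists did not overlap between these groups. In DT HFD the beta-cell markers summed to 29916 to 110995 CPM, against 232001 to 254092 CPM in DT SD, the acinar markers to 6551 to 19039 against 38021 to 167158 CPM and the sympathetic markers to 109 to 200 against 323 to 350 CPM. The endothelial markers summed to 334 to 423 against 471 to 598 CPM, the mural markers to 170 to 254 against 262 to 367 CPM and the lymphocyte markers to 903 to 1633 against 59.5 to 552 CPM. Their part in these differences was not tested.

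At 5 days against CTRL, Hhex, a factor of delta cells, fell by 0.78 on the log2 scale (SE 0.20, adjusted p = 0.0155 by edgeR), where 3.8% of all genes were called higher and 1.59% lower. Hhex did not pass without CTRL replicate 1 (adjusted p = 0.0841) or DT 5 DPA replicate 2 (0.0527), or without the libraries holding enterocyte RNA (0.113), while its log2 fold change was then -0.70, -0.72 and -0.85. Macrophage markers were at 528 to 1496 CPM in CTRL. In STZ SD against DT SD, where 2.16% of genes were called higher and 0.403% lower, the PP-cell genes Aqp3 (5.82, adjusted p = 0.0342) and Id2 (0.76, adjusted p = 0.0497) passed. Aqp3, a water and glycerol channel, was at 28.7 and 31.0 CPM in the 2 STZ SD libraries with enterocyte RNA and at 0.46 and 0.31 CPM in the others. Its log2 fold change without libraries holding enterocyte RNA was 0.57 (adjusted p = 0.902), and that of Id2 was 0.35 (adjusted p = 0.538). With any 1 of 6 of the 8 libraries left out, neither passed (adjusted p up to 0.119 and 0.204). In each of the other 10 comparisons 0 of the 50 genes passed with edgeR, with 0 to 13 at an unadjusted p below 0.05 and 0 to 5 called by DESeq2.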

How the data were processed

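RNA-seq of mouse islets was measured in 34 libraries, of which 33 fell into 9 groups and 1, titled CTRL HFD but with the treatment label DT, entered no comparison. The labels' protocols name the RNeasy Mini kit for RNA and the QIAseq stranded mRNA kit for the libraries, and the submitters' processing notes name mm10. The sources used here name no aligner, counter, strand setting or annotation. The deposited file gives, per the file headers, total counts per gene with no normalization, which were the input of every test, and the TPM values of the authors, used only to compare genes per length. The RPKM values of the authors, and columns deposited under the heading CPM that are here called a score because they do not sum as CPM would, were not used. Columns were assigned through the labels, and 0 were of other samples.

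Genes were kept with filterByExpr of edgeR 4.0.16 (count minimum 10, total minimum 15), leaving 17616 of 48709. TMM scaling and 1 quasi-likelihood fit over all 33 libraries with group as the factor gave log2 fold changes, standard errors (SE) and p-values adjusted by Benjamini-Hochberg over all tested genes, called below 0.05. CPM uses TMM-scaled library sizes, and rank correlations use log2 CPM with a prior count of 2 over tested genes whose mean reached 1 on that scale. The fit was tested on simulated data. Alternatives were DESeq2 1.42.0 (size factors and Wald test), no filter and a stricter one, hormone genes left out of scaling, the compared groups alone, the replicate number as a block, each library left out, and the 8 libraries with enterocyte RNA left out. This last was applied to the counts of libraries outside a range after seeing the data.

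The members and lists were chosen with earlier results of these data known. Named genes are the members, of each list the up to 3 with the smallest adjusted p below 0.05 in any comparison, the 5 with the highest rank correlation with each member (leaving out predicted symbols), defining markers and neighbours in the genome, and others are said to be picked later. One gene that the rule names is not reported here. No label says that replicates are separate animals, so p-values measure the spread between these samples, which may be technical. The 45 pairs of libraries within groups all differed by more than counting noise (smallest chi-square per degree of freedom 25.7). Limits of detection cover counting error only. The interval given for Ppy rests on the SE of the fit, which includes the spread between libraries. Coordinates are from GENCODE M21 on GRCm38.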

Additional observations from a re-analysis of the deposited data

Results flagged for a closer look

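In groups of 4 libraries, 24 sets of values were examined for a library far from the others by Dixon's gap rule on log2 CPM, and 3 had one. Chance gives about 1 in 20. Ppy in DT 5 DPA replicate 1 stood at 1208 CPM, where the other 3 libraries were between 5.60 and 13.3 CPM. Npy in DT SD replicate 3 stood at 29.1 CPM, below the 55.3 to 60.2 CPM of the other 3, and this library was also the one high in Ppy, Pyy and Sst. Npy1r in STZ SD replicate 4 stood at 1.38 CPM, below 5.40 to 5.82 CPM in the other 3. DT 5 DPA replicate 1 and STZ SD replicate 4 are among the libraries with enterocyte RNA, whose part in these values was not tested.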

How the results depend on the processing

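Among the member results, Pyy at 30 against 5 days was the only call, and it was lost with DESeq2 size factors (2.10, adjusted p = 0.0533), no low-count filter (2.08, 0.0873), hormone genes left out of scaling (2.09, 0.0530) and the compared groups alone (2.09, 0.0871). Without the libraries holding enterocyte RNA, the log2 fold changes of Ppy became -8.43 (5 days against CTRL) and 7.38 (30 against 5 days), those of Pyy -0.62 (30 days against CTRL, reversed) and 2.66 (30 against 5 days, adjusted p = 0.254), and those of Npy 1.99 (30 days against CTRL) and -0.67 (30 against 5 days). Npy in DT HFD against DT SD was then -1.46 (adjusted p = 0.0434), but did not pass with only 1 compared library left out (0.182 to 0.511). Where 1 library was left in a group, its spread was taken from the other groups. Without those libraries 8 of 10 DT libraries lay below all 15 others in Ppy, 6 in Pyy, and 9 above in Npy. The share of all genes with such counts was not computed for this set, and nothing is read from them. DESeq2 called 1 of the 44 tests at 10 weeks, and edgeR 0 under the other 6 alternatives that keep all libraries. List genes called without those libraries numbered 3 for 30 against 5 days and 30 for DT HFD against DT SD, and 9 for the latter both with no low-count filter and with the compared groups alone. With 1 library left out, the counts ranged from 21 to 30 and from 0 to 21, the lowest without DT HFD replicate 2. The cause of these changes was not tested.

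With 1 library left out, log2 fold changes against CTRL ranged from -8.02 to -2.55 (Ppy, 5 days), -0.23 to 0.53 (Pyy, 30 days) and 2.29 to 4.16 (Npy, 30 days), and at 30 against 5 days from 2.32 to 7.74 (Ppy) and 1.76 to 3.22 (Pyy). At 10 weeks against untreated islets they ranged for Ppy from -4.40 to 0.0045 (DT SD), -5.18 to 0.076 (DT HFD) and -0.41 to 0.13 (STZ HFD), for Pyy from -0.10 to 0.37 (STZ SD) and -0.54 to 0.033 (STZ HFD), and for Npy from -0.46 to 0.25 (STZ SD). The extreme values of Ppy in DT SD and DT HFD came without DT SD replicate 3 and DT HFD replicate 1.

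No label pairs the replicate numbers. Over 115 pairs of libraries with the same number the mean correlation of deviations was 0.03, against -0.01 for other pairs, and 8 of 33 libraries correlated best with their own number. With the replicate number as a block, 30 list genes were called for 30 against 5 days and 12 for DT HFD against DT SD, and Pyy at 30 against 5 days was 2.40 (adjusted p = 0.0253). The calls of Fap at 30 against 5 days (adjusted p = 0.0502) and Id2 in STZ SD against DT SD (0.0642) were lost with the block. Calls lost when some single libraries were left out were those of Etv1, Fap and Prep at 30 against 5 days, Hhex at 5 days, Pcsk1, Cpe and Slitrk6 in DT HFD against DT SD, and Aqp3 and Id2 in STZ SD against DT SD.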

Other observations

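The library titled as an untreated HFD replicate but with the treatment label DT held Ppy at 791.6 CPM, Pyy at 683.7 CPM, Npy at 7.09 CPM and Npy1r at 5.91 CPM. Npy4r had 1 count there.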
